A study of Mus musculus with 2 samples.

Results

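Single-cell RNA-seq of mouse lung was used to follow 9 genes of blood coagulation and fibrinolysis, namely *Plat*, *Plau*, *Plaur*, *Thbd*, *F3*, *F8*, *Vwf*, *Procr* and *Tfpi*. They were taken by symbol from the 27998 genes of both count matrices, and all 9 were found in each. Lungs of C57BL/6 mice reared from birth to postnatal day 14 in either 21% O2 (room air) or 80% O2 (hyperoxia) were digested with enzymes, and the cells of 8 mice were pooled into 1 library per group. Neither group had a replicate, so no test between the groups was possible. Hyperoxia in newborn mice is a model of bronchopulmonary dysplasia, the chronic lung disease of preterm infants. The values ask where in the lung these genes were expressed and in which cells the libraries differed.

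Clotting starts when blood meets tissue factor (*F3*), a membrane protein of cells outside the endothelium, and ends when thrombin turns fibrinogen into fibrin. Endothelial cells (ECs) hold this in check with thrombomodulin (*Thbd*), the endothelial protein C receptor (*Procr*) and tissue factor pathway inhibitor (*Tfpi*), while they supply von Willebrand factor (*Vwf*) for platelet adhesion and factor VIII (*F8*) for the clotting cascade. Fibrin is removed by plasmin, which tissue plasminogen activator (*Plat*) and urokinase (*Plau*, bound by its receptor *Plaur*) make from plasminogen.

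Unique molecular identifiers (UMIs, counted molecules) were summed over the cells of a type and are given as counts per 1000000 UMIs of these cells (CPM). Intervals are exact 95% intervals that cover counting error only, not the spread between mice. A gene was called higher or lower in hyperoxia when its CPM differed by a fold of at least 1.5 and its mean CPM over both libraries was at least 10. The room air library held 4234 barcodes and 39593888 UMIs, and the hyperoxia library 13223 barcodes and 111934936 UMIs, of which 3680 and 10472 cells were kept (median 8038 and 7212.5 UMIs). The libraries shared 17 cell barcodes. The EC markers summed to 12312 CPM in the 1039 endothelial-like cells of room air and to 12586 CPM in the 2533 of hyperoxia, against at most 279 CPM in any other lineage (lymphocyte-like cells of hyperoxia). The aerocyte capillary cells (aCap) made up 14.5% of the endothelial-like cells in room air and 42.6% in hyperoxia. Since the counts come from the 3′ ends of transcripts, levels are compared within a gene and not between genes.

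The 9 genes fell to different lineages. *Vwf*, *Thbd* and *Procr* were mainly endothelial, with 94.2%, 70.7% and 74.7% of their UMIs in endothelial-like cells in room air and 92.9%, 79.7% and 74.8% in hyperoxia. *Plat*, *Tfpi* and *F3* were mainly stromal, with 77.7%, 63.6% and 65.3% of their UMIs in stromal-like cells in room air and 62.9%, 58.7% and 75.9% in hyperoxia. *Plaur* and *Plau* were mainly myeloid, with 70.9% and 68.7% in room air and 56.9% and 50.4% in hyperoxia. The share of *Plat* UMIs in endothelial-like cells was 20.8% in room air and 35.4% in hyperoxia, and that of *Plaur* was 19.4% and 33.9%. These shares also depend on how many cells of each lineage a library held.

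**Figure D1:**
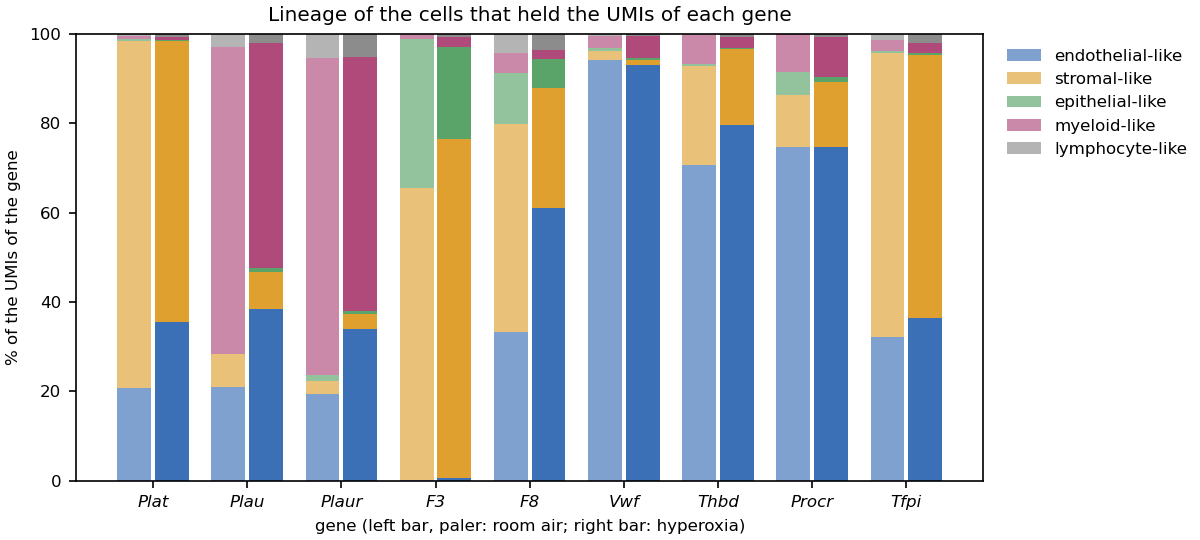
Share (%) of the UMIs of each gene (x axis) found in cells of each of 5 lineages (colours), with the room air library as the left, paler bar and the hyperoxia library as the right bar. The endothelial-like share of *Vwf* was above 90% in both libraries (94.2% and 92.9%), whereas that of *F3* was near 0 (0.266% and 0.622%).

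In endothelial-like cells 6 of the 9 genes passed the filter on low values, and *Plat* and *Plaur* were called higher in hyperoxia. None was called lower. Of all 8414 genes that passed, 6.69% were called higher and 8.47% lower (8.45% and 6.93% after scaling with TMM factors, 8.94% and 6.68% with median-of-ratios size factors). The median log2 ratio of the 6 genes was 0.44, beside 0.01 over all genes that passed. Within the subpopulations the called genes differed. In general capillary cells (gCap) *Thbd* was called higher and *Vwf* lower among the 5 genes that passed, where 6.86% and 9.25% of all genes were called. In aCap-like cells *Plat* and *Tfpi* were called higher and none lower among the 4 that passed, beside 8.72% and 9.35% of all genes. In artery-like cells *Plat*, *Vwf* and *Procr* were called higher and none lower among the 6 that passed, beside 14.1% and 15.7%. In the 41 and 103 cycling endothelial cells *Plaur*, *Thbd*, *Vwf* (7 and 54 UMIs) and *Tfpi* were called higher and none lower among the 5 that passed, beside 14.5% and 17.5%.

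The other lineages differed in their calls. None of the 4 genes that passed in stromal-like cells was called, beside 5.21% of all genes higher and 5.12% lower. In epithelial-like cells only *F3* passed and it was called lower, beside 4.68% higher and 8.96% lower over all genes. The make-up of this lineage differed. Of its 259 cells in room air 63 were AT1-like and 162 AT2-like, and of its 1049 in hyperoxia 138 and 805. The part of this in the *F3* call was not tested. In myeloid-like cells *Vwf* was called higher and *Thbd* lower among the 3 that passed, beside 4.33% and 8.27%. Without doublet removal neither of the lower calls stood, with a log2 ratio of -0.38 in place of -0.91 for *F3* in epithelial-like and -0.05 in place of -0.65 for *Thbd* in myeloid-like cells. In lymphocyte-like cells *Thbd* was called higher and none lower among the 2 that passed, beside 2.73% and 1.96%. It was 6.47 and 14.1 CPM there (31 and 168 UMIs), while the 8 EC markers summed to 232 and 279 CPM with 7 of 8 higher, and their part was not tested. A gene that passed the filter only through its level in 1 library had to differ, so that these counts describe the genes and test nothing.

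**Figure D2:**
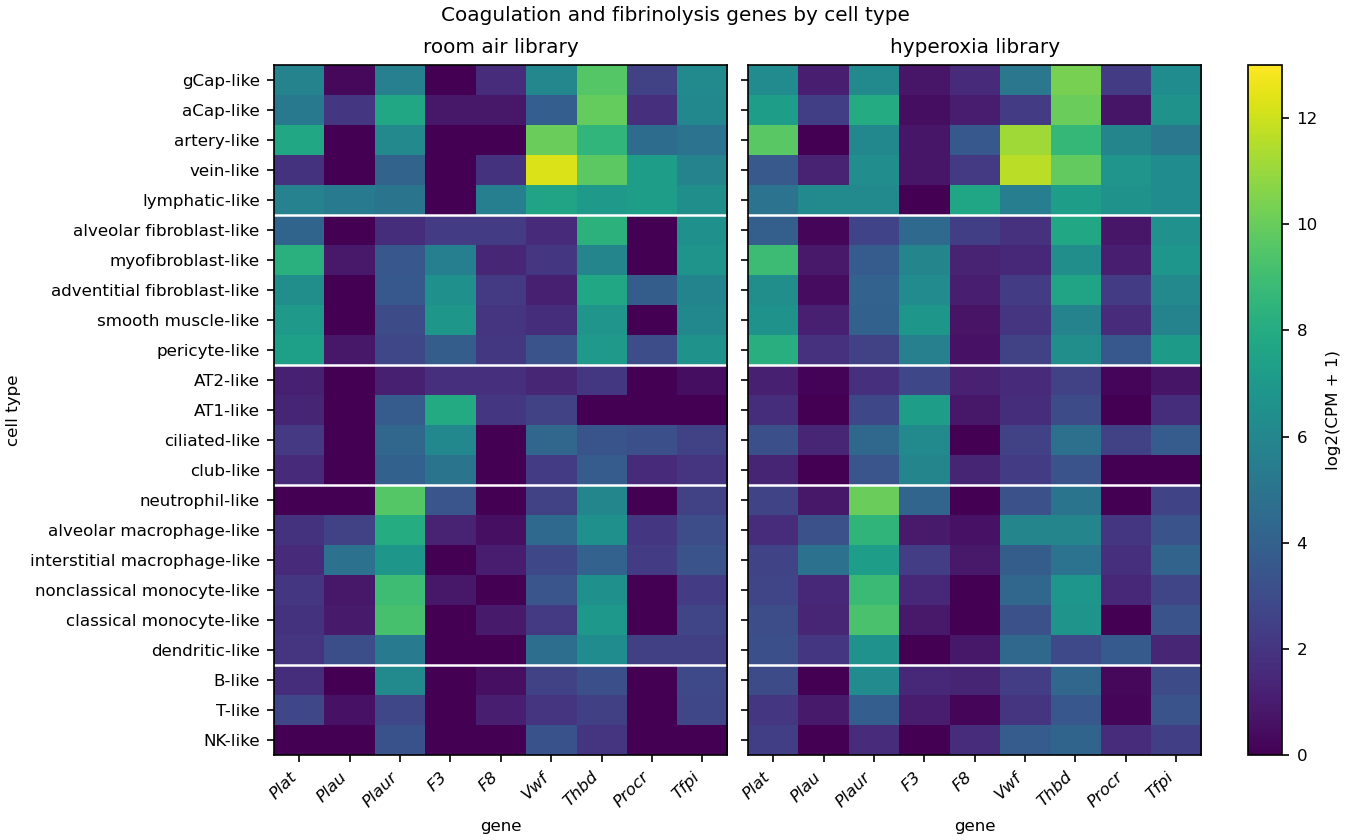
Levels of the 9 genes (columns) in 23 cell types (rows) as log2(CPM + 1), with the room air library on the left and the hyperoxia library on the right; white lines part the lineages. Read down a column, *Vwf* was highest in vein-like cells (5083 and 3249 CPM), *Plaur* in neutrophil-like cells (747 and 1048 CPM) and *F3* in AT1-like cells (243 and 155 CPM).

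*Plat* (ENSMUSG00000031538, chr8:22757727-22782844, plus strand, GRCm38) encodes tissue plasminogen activator, which cleaves plasminogen on fibrin. In room air its highest level was in myofibroblast-like cells (304 CPM, interval 289 to 320), followed by artery-like (223), pericyte-like (158) and smooth muscle-like cells (132), where only the intervals of pericyte-like and smooth muscle-like cells overlapped. In hyperoxia artery-like cells came first with 820 CPM (773 to 870), ahead of myofibroblast-like (476), pericyte-like (286) and aCap-like cells (147), with no overlap between these neighbours.

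Among the named EC types with at least 50 cells in each library, the ratio was past the fold in arteries and aerocytes. In artery-like cells *Plat* was 223 CPM in room air (196 UMIs, 95 cells) and 820 CPM in hyperoxia (1115 UMIs, 135 cells), a ratio of 3.67 (3.15 to 4.29). At an equal depth of 2000 UMIs per cell, 27.4% of artery-like cells in room air and 58.6% in hyperoxia held a *Plat* UMI, against 0.529% and 1.29% of B-like cells, which should lack it. Enough UMIs for this were held by 95 of 95 and 133 of 135 artery-like cells and by 378 of 417 and 1165 of 1331 B-like cells. The median depth was 7974 and 8813 UMIs in artery-like and 4515 and 2911 in B-like cells. Before thinning the shares were 63.2% and 84.4% in artery-like cells. The UMIs were spread over cells, since 13 cells held 50% of them in room air and 22 cells in hyperoxia.

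In aCap-like cells *Plat* was 36.6 CPM in room air (46 UMIs) and 147 CPM in hyperoxia (1140 UMIs), a ratio of 4.02 (2.99 to 5.52). The aCap-like cells of the 2 libraries lay mostly in different clusters. Cluster 11 held 103 of the 151 room air cells and 17 of the 1079 hyperoxia cells, and *Plat* in it was 38.2 and 46.2 CPM, a ratio of 1.21 (0.541 to 2.45). Clusters 2, 3 and 10 held 470, 249 and 134 cells of hyperoxia and at most 9 of room air, and *Plat* in hyperoxia was 161, 123 and 236 CPM in them. The remaining cluster 5 held 30 and 209 cells of low depth (median 1067.5 and 1034 UMIs). At 2000 UMIs per cell 5.83% of aCap-like cells in room air and 22.8% in hyperoxia held a *Plat* UMI.

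In gCap-like cells *Plat* was 55.0 and 76.4 CPM, a ratio of 1.39 (1.19 to 1.62), which did not reach the fold. Here too cluster 1 held 510 of the 609 room air cells and cluster 0 held 687 of the 852 hyperoxia cells, while cluster 4 held 95 and 150. The cells of cluster 4 were shallow, with a median of 2122 and 2907 UMIs against 7337 and 8322 over all gCap-like cells. In cluster 4 *Plat* was 73.2 and 96.9 CPM with an interval of the ratio from 0.735 to 2.50. Vein-like cells held little *Plat*, with 2.74 CPM in room air from 1 UMI and 11.5 CPM in hyperoxia from 16 UMIs. Over all endothelial-like cells the ratio was 2.24 (2.04 to 2.45), from 65.9 to 147 CPM, and its log2 value of 1.16 was 1.29 when the subpopulations were weighted as in room air.

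In stromal-like cells as a whole *Plat* was 173 and 178 CPM. Myofibroblast-like cells, which shape the alveolar septa, had 304 and 476 CPM (ratio 1.56, 1.47 to 1.66; log2 ratio 0.64, and 0.58 with double the expected doublets removed), and pericyte-like cells 158 and 286 CPM (ratio 1.81, 1.53 to 2.15). The myofibroblast-like cells lay partly in different clusters, of which 1 held 214 cells of room air and 5 of hyperoxia, another 7 and 367, and the third 124 and 251. Alveolar fibroblast-like cells had 17.0 and 14.1 CPM and adventitial fibroblast-like cells 84.8 and 85.2 CPM. Smooth muscle-like cells had 132 and 97.7 CPM, but other ways of drawing this type gave log2 ratios from -1.2 to 4.66, so that no direction is given. The share of stromal cells that were alveolar fibroblast-like was larger in hyperoxia (1206 of 2798 cells, against 229 of 887).

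*Plaur* (ENSMUSG00000046223, chr7:24462484-24475968, plus strand), the urokinase receptor, was a myeloid gene with an endothelial site in aerocytes. Its order was the same in both libraries for the neutrophil-like (747 and 1048 CPM), classical monocyte-like (594 and 607 CPM) and nonclassical monocyte-like cells (498 and 472 CPM), and none of these neighbours had overlapping intervals. Alveolar macrophage-like cells had 268 and 368 CPM. The aCap-like cells came next among types with at least 50 cells, where the room air level was 214 CPM (189 to 241) and the hyperoxia level 257 CPM (246 to 268).

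Over endothelial-like cells *Plaur* was 77.9 and 147 CPM, a ratio of 1.89 (1.73 to 2.06). In the 3 named subpopulations with the most room air cells the ratios were smaller, namely 1.199 (1.06 to 1.37) in aCap-like cells, 1.48 (1.27 to 1.74) in gCap-like cells and 0.963 (0.688 to 1.35) in artery-like cells. With the subpopulations weighted as in room air the log2 ratio was 0.42 in place of 0.92, below the fold of 1.5. In both libraries the level in aCap-like cells lay above that in gCap-like cells (49.9 and 74.0 CPM) without overlap of the intervals. Vein-like cells had 16.4 CPM in room air from 6 UMIs and 81.5 CPM in hyperoxia from 113 UMIs, a ratio of 4.96 (2.21 to 13.8). The platelet markers in these cells summed to 10.96 and 133 CPM, and their part was not tested. The ratio was 2.32 (0.990 to 6.66) in lymphatic-like cells from 6 and 46 UMIs and 1.76 (1.11 to 2.91) in cycling endothelial cells.

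Among B-like cells *Plaur* was 72.3 and 76.9 CPM, so that these cells are no blank for it. T-like cells were lower, and 1.005% of them in room air and 3.38% in hyperoxia held a *Plaur* UMI at 2000 UMIs per cell. In aCap-like cells this share was 36.7% and 36.5%, and in gCap-like cells 8.66% and 13.3%. Neutrophil-like cells had a ratio of 1.40 (1.24 to 1.59) and alveolar macrophage-like cells of 1.37 (1.253 to 1.51), both below the fold.

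*Plau* (ENSMUSG00000021822, chr14:20836660-20843385, plus strand), the urokinase gene, was sparse, with 67 UMIs in all cells of room air and 242 in hyperoxia. The lymphatic-like cells led with 42.0 CPM (18.2 to 82.8, 8 UMIs) and 74.9 CPM (55.0 to 99.6, 47 UMIs). Of the 8 UMIs of room air, 5 came from 1 of the 14 cells. Interstitial macrophage-like cells had 28.1 CPM in each library (28 and 67 UMIs), a ratio of 1.003 (0.636 to 1.62). In endothelial-like cells *Plau* was 1.70 and 4.67 CPM and did not pass the filter. No B-like cell held a *Plau* UMI at 2000 UMIs (0 of 378 and 0 of 1165 cells, which allows shares of up to 0.794% and 0.258%).

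**Figure D3:**
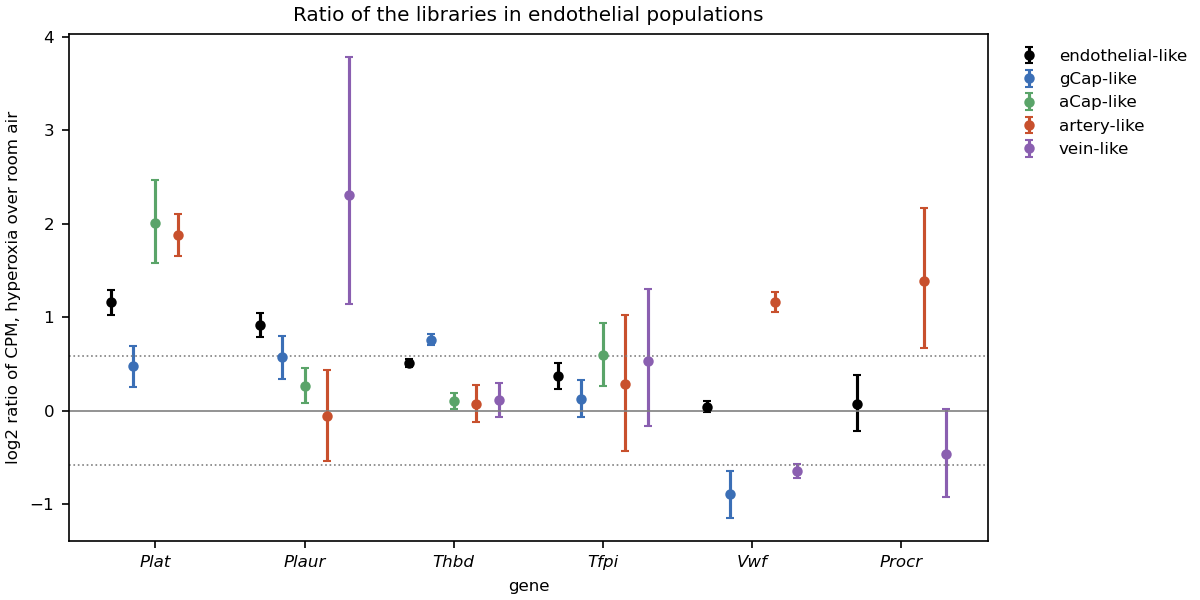
Log2 ratio of CPM, hyperoxia over room air (y axis), of 6 genes in all endothelial-like cells and in 4 subpopulations (colours); bars are exact 95% intervals for counting error, dotted lines the fold of 1.5, and genes with a mean CPM under 10 are left out. *Plat* lay above the fold in aCap-like (2.01) and artery-like cells (1.88), and *Vwf* lay above it in artery-like (1.16) and below it in gCap-like (-0.90) and vein-like cells (-0.65).

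*Thbd* (ENSMUSG00000074743, chr2:148404466-148408188, minus strand), whose product thrombomodulin turns thrombin into an activator of protein C, was abundant in every type of blood vessel EC. In room air aCap-like cells had 989 CPM, vein-like cells 858 CPM and gCap-like cells 764 CPM, and neighbours in this order had overlapping intervals. In hyperoxia the order was gCap-like (1294 CPM, 1268 to 1321), aCap-like (1060 CPM) and vein-like cells (925 CPM), without overlap. Artery-like cells followed with 377 and 397 CPM.

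Only the capillary cells of the gCap type differed by more than the fold among these 4 subpopulations. *Thbd* was 764 CPM in gCap-like cells of room air (3556 UMIs) and 1294 CPM in hyperoxia (9011 UMIs), a ratio of 1.69 (1.63 to 1.76). In cluster 4, which both libraries filled with cells of low depth, it was 691 CPM (95 cells) and 1511 CPM (150 cells), a ratio of 2.19 (1.83 to 2.62). At 2000 UMIs per cell 69.8% of gCap-like cells in room air and 86.2% in hyperoxia held a *Thbd* UMI, against 0.265% and 3.61% of B-like cells. The ratio was 1.07 (1.009 to 1.14) in aCap-like, 1.05 (0.916 to 1.21) in artery-like and 1.08 (0.952 to 1.22) in vein-like cells. Whether the ratio differed between subpopulations beyond the spread between mice was not tested.

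Outside the endothelium *Thbd* was lower in hyperoxia in several types. Alveolar fibroblast-like cells had 331 and 212 CPM (ratio 0.641, 0.596 to 0.690), alveolar macrophage-like cells 89.6 and 58.6 CPM (0.654, 0.546 to 0.784) and neutrophil-like cells 62.3 and 31.1 CPM (0.499, 0.298 to 0.8499). The 8 EC markers in neutrophil-like cells summed to 752 and 311 CPM, with none higher in hyperoxia, and their part was not tested. In alveolar fibroblast-like cells the log2 ratio was -0.64, and the mean over single cells gave -0.45, short of the fold. These cells lay mostly in different clusters, since 1 held 166 cells of room air and 5 of hyperoxia and a pair of others 3 and 540 and 6 and 456, while both libraries filled the last with 54 and 205. In the alveolar macrophage-like cells the log2 ratio was -0.61, and it fell short of the fold with TMM (-0.29) and median-of-ratios factors (-0.27). In dendritic-like cells it was 78.2 CPM from 51 UMIs and 6.42 CPM from 8 UMIs, and 1 cell held 25 of the 51. The EC markers there summed to 594 and 117 CPM, again with none higher, and their part was not tested. Smooth muscle-like cells had 111 and 54.7 CPM, but this direction turned under 3 of the other ways of drawing the type. Myofibroblast-like cells had 59.0 and 84.8 CPM (1.44, 1.249 to 1.66).

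*Procr* (ENSMUSG00000027611, chr2:155751117-155755471, plus strand), which presents protein C to thrombomodulin, was highest in veins, lymphatics and arteries. Vein-like cells had 148 CPM (111 to 193) and 107 CPM (90.9 to 126), and lymphatic-like cells 152 CPM (29 UMIs) and 102 CPM (64 UMIs). The intervals of these neighbours overlapped in both libraries. Artery-like cells followed with 22.8 CPM (20 UMIs) and 59.6 CPM (81 UMIs), a ratio of 2.61 (1.59 to 4.502). In gCap-like cells the level was 4.73 and 3.73 CPM. Over all endothelial-like cells *Procr* was 15.8 and 16.7 CPM, a ratio of 1.05 (0.858 to 1.30).

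*Tfpi* (ENSMUSG00000027082, chr2:84432855-84476775, minus strand), the inhibitor of tissue factor and factor Xa, was found in all stromal and blood vessel types. Among types with at least 50 cells, the room air levels ran from myofibroblast-like (107 CPM) and pericyte-like (101 CPM) through alveolar fibroblast-like (90.1 CPM), gCap-like (73.5 CPM) and aCap-like cells (66.9 CPM), and each interval overlapped that of its neighbour in this order. In hyperoxia pericyte-like cells had 133 CPM, myofibroblast-like 113 CPM, aCap-like 101 CPM and alveolar fibroblast-like cells 96.0 CPM. Artery-like cells were lower, with 29.6 and 36.05 CPM. Only aCap-like cells passed the fold among these, with a ratio of 1.51 (1.202 to 1.91), and 4 of 10 alternative settings brought it below 1.5. At 2000 UMIs per cell 15.8% of aCap-like cells in room air and 18.4% in hyperoxia held a *Tfpi* UMI, and these intervals overlapped.

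*Vwf* (ENSMUSG00000001930, chr6:125546774-125686679, plus strand), the carrier of factor VIII and ligand of platelets, was mainly a gene of vein and artery ECs. Vein-like cells had 5083 CPM in room air (1855 UMIs, 34 cells) and 3249 CPM in hyperoxia (4507 UMIs, 110 cells), a ratio of 0.639 (0.605 to 0.675). The log2 ratio was -0.65, and it fell short of the fold (-0.50) when double the expected doublets were removed. Every vein-like cell of both libraries held a *Vwf* UMI. The summed platelet markers in these cells were 10.96 CPM in room air against 133 CPM in hyperoxia, all 8 of them higher, and their part in the *Vwf* level, which platelets also hold, was not tested.

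Artery-like cells went the other way. *Vwf* was 1028 CPM in room air (902 UMIs, 95 cells) and 2297 CPM in hyperoxia (3122 UMIs, 135 cells), a ratio of 2.23 (2.07 to 2.41). At 2000 UMIs per cell 52.6% and 93.2% of artery-like cells held a *Vwf* UMI, against 1.06% and 0.687% of B-like cells. The log2 ratio of 1.16 was 0.08 without the removal of doublets, when the type held 29 cells of room air and 131 of hyperoxia, and 0.46 at a clustering resolution of 0.5, with 54 and 135 cells. The cause of this was not tested. Likewise the log2 ratio of *Plat* in these cells was 1.2 without doublet removal, and that of *Procr* 0.52, below the fold.

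In gCap-like cells *Vwf* was 64.7 and 34.8 CPM, a ratio of 0.537 (0.452 to 0.638), and in cluster 4 it was 206 and 99.0 CPM (0.481, 0.313 to 0.740). With the libraries clustered apart the log2 ratio in gCap-like cells was -0.54 in place of -0.90, short of the fold. The UMIs lay in few cells, with 50% of them in 19 cells of room air and 18 of hyperoxia. The aCap-like cells were nearly blank, with 13.53 CPM (17 UMIs) and 3.75 CPM (29 UMIs). Over all subpopulations together, *Vwf* in endothelial-like cells was 391 and 403 CPM, a ratio of 1.03 (0.988 to 1.07).

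Alveolar macrophage-like cells also differed in *Vwf*. The level was 20.5 CPM in room air (45 UMIs, 158 cells) and 60.2 CPM in hyperoxia (336 UMIs, 331 cells), a ratio of 2.94 (2.15 to 4.11). A UMI was held by 35 cells of room air and 162 of hyperoxia (median depth 13609.5 and 16684 UMIs), and no cell held over 9. At 2000 UMIs per cell the shares were 3.36% (1.10 to 7.66) and 12.3% (8.85 to 16.5). The 8 EC markers in these cells summed to 85.1 and 87.4 CPM, a ratio of 1.03, and the 8 platelet markers to 111 and 21.3 CPM. The part of RNA from other cells in this *Vwf* level was not tested. The cells lay mostly in different clusters, of which 1 held 117 of room air and 16 of hyperoxia, another 9 and 287, and the third 32 and 28.

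**Figure D4:**
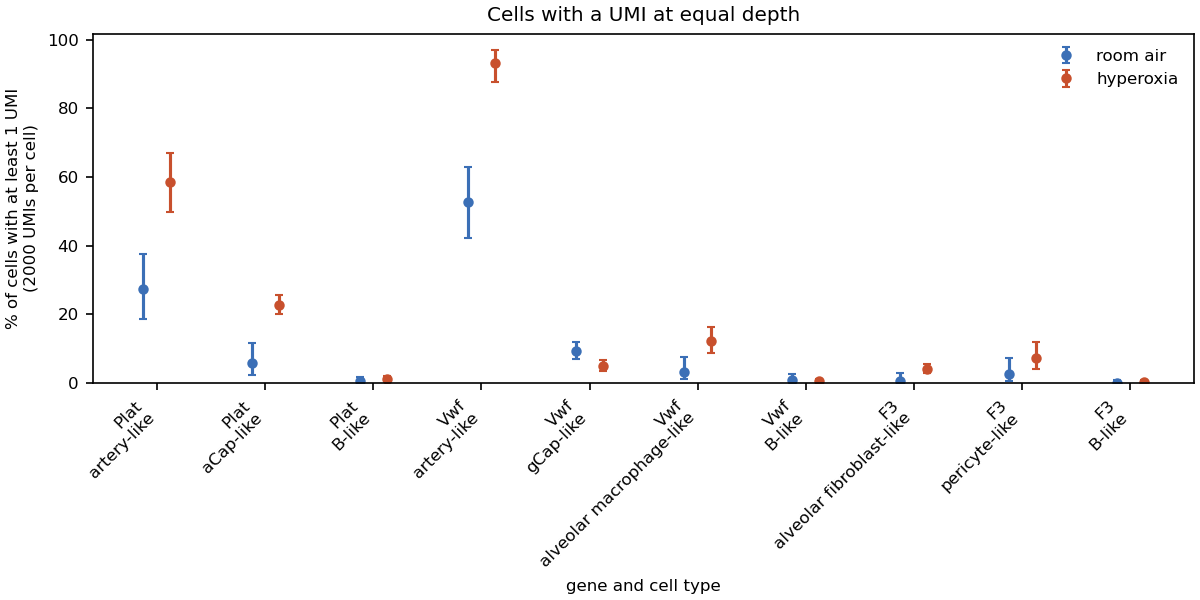
Share (%) of cells with at least 1 UMI of *Plat*, *Vwf* or *F3* (y axis) after each cell was thinned to 2000 UMIs, by cell type (x axis) and library (colours), with B-like cells as the background; bars are exact 95% intervals. For *Vwf* the shares were 52.6% and 93.2% in artery-like and 3.36% and 12.3% in alveolar macrophage-like cells, against 1.06% and 0.687% in B-like cells.

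*F8* (ENSMUSG00000031196, chrX:75172715-75382615, minus strand), the cofactor that *Vwf* carries, was highest in lymphatic-like cells in both libraries. They had 47.3 CPM in room air (9 UMIs, 14 cells) and 202 CPM in hyperoxia (127 UMIs, 68 cells), a ratio of 4.28 (2.18 to 9.57). The UMIs lay in few cells, since 3 cells held those of room air and 3 cells held 50% of those of hyperoxia. The 8 platelet markers in them summed to 26.3 and 108 CPM with 4 of 8 higher and the 9 epithelial markers to 447 and 787 CPM with 5 of 9 higher, and their part was not tested. The mean over single cells gave a log2 ratio of 0.32 in place of 2.1. Artery-like cells had no UMI in room air and 15 in hyperoxia (11.04 CPM), at least 3.23-fold higher if 3 UMIs in all these cells are taken as the floor. In every other named type *F8* was below 5 CPM in both libraries. The annotation places 1 other gene on the same strand within the *F8* locus and 2 on the other strand, and none of the other 8 loci overlaps another gene.

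*F3* (ENSMUSG00000028128, chr3:121723537-121735048, plus strand), tissue factor, was barely detected in the endothelium, with 2 UMIs in 1039 endothelial-like cells of room air and 12 in 2533 of hyperoxia. At 2000 UMIs per cell 0 of 896 cells in room air held one, which allows a share of up to 0.335%. The highest level was in alveolar type 1 (AT1)-like cells, the thin cells of the gas exchange surface, where room air had 243 CPM (206 to 284) and hyperoxia 155 CPM (135 to 178). The ratio was 0.640 (0.517 to 0.794), a log2 ratio of -0.64 that was -0.37 when double the expected doublets were removed, and the share of AT1-like cells with a UMI at 2000 UMIs was 31.9% and 32.7%. Smooth muscle-like (117 and 118 CPM), adventitial fibroblast-like (92.1 and 77.1 CPM) and ciliated-like cells (66.2 and 71.6 CPM) followed, and in room air each of these intervals overlapped the next. In smooth muscle-like cells the log2 ratio of 0.02 ran from -1.24 to 0.97 over 10 alternatives. AT2-like cells, which make surfactant, had 2.43 and 5.93 CPM.

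The fibroblasts of the alveolus and the pericytes held more *F3* in hyperoxia. Alveolar fibroblast-like cells had 3.93 CPM in room air (12 UMIs, 229 cells) and 20.8 CPM in hyperoxia (256 UMIs, 1206 cells), a ratio of 5.29 (2.97 to 10.4), in cells that lay mostly in different clusters in the libraries, as given for *Thbd*. The share of cells with a UMI at 2000 UMIs was 0.526% (0.0133 to 2.90) and 4.23% (3.101 to 5.62), while B-like cells had 0 of 378 and 0.429%. The 6 erythroid markers in these cells summed to 20.6 and 289 CPM, and their part was not tested. In room air 3 of the 12 UMIs came from 1 cell with 859 UMIs in all, and the mean over single cells gave a log2 ratio of 0.19 in place of 2.40. Pericyte-like cells had 13.03 CPM (16 UMIs, 125 cells) and 50.3 CPM (95 UMIs, 218 cells), a ratio of 3.86 (2.26 to 7.02). There 1 cell held 13 of the 16 UMIs of room air, and 1 cell 26 of the 95 of hyperoxia. Without these cells the levels were 2.46 and 36.7 CPM.

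Genes of the stress response to tissue dissociation, such as FOS and JUN genes, differed in these types. In alveolar fibroblast-like cells the 12 genes of this list summed to 6941 CPM in room air against 11551 CPM in hyperoxia, and all 12 were higher. In pericyte-like cells they summed to 6442 and 8974 CPM with 11 of 12 higher, in artery-like cells to 7453 and 10021 CPM with 10 of 12 higher, and in epithelial-like cells to 3798 and 2215 CPM with none higher. The epithelial types differed in this. The sums were 1639 and 1627 CPM in AT2-like and 2903 and 2676 CPM in AT1-like cells, each with 4 of 12 higher. In ciliated-like cells these genes summed to 10276 and 6977 CPM with 1 of 12 higher. In alveolar macrophage-like cells they summed to 6427 and 4263 CPM with none higher. Their part in the levels of *F3*, *Plat* and *Vwf* was not tested.

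**Figure D5:**
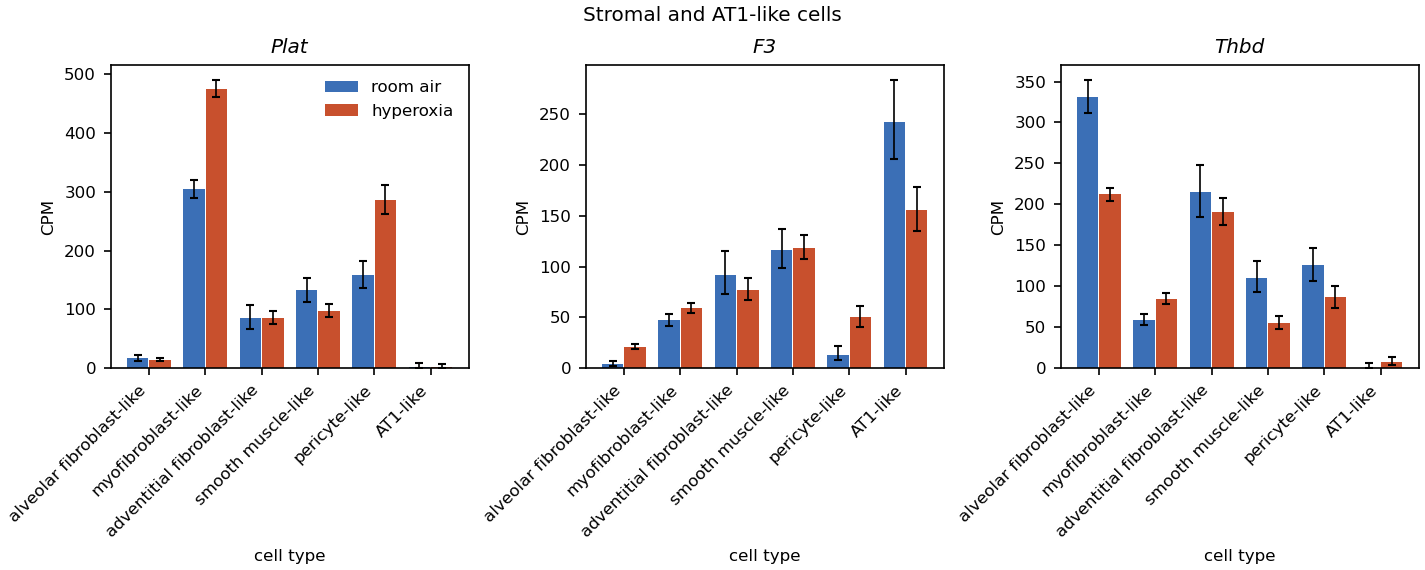
Levels (CPM, y axis) of *Plat*, *F3* and *Thbd* in stromal types and AT1-like cells (x axis) of the room air (blue) and hyperoxia (red) libraries; bars start at 0 and error bars are exact 95% Poisson intervals. *F3* was 3.93 and 20.8 CPM in alveolar fibroblast-like and 13.03 and 50.3 CPM in pericyte-like cells, while *Thbd* in alveolar fibroblast-like cells was 331 and 212 CPM.

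The FOS and JUN genes of the dissociation list encode the AP-1 factors. The stretches before the starts of *F3* and *Plaur* are shown with their matches to the AP-1 motif TGANTCA in capitals. RefSeq promoters (GRCm38.p6) were given for 5 of the 9 genes, namely *F3*, *F8*, *Plaur*, *Procr* and *Tfpi*. Both sequences below are the 250 bases before the start on the plus strand, *F3* from chr3:121723287-121723536 and *Plaur* from chr7:24462233-24462482.
F3: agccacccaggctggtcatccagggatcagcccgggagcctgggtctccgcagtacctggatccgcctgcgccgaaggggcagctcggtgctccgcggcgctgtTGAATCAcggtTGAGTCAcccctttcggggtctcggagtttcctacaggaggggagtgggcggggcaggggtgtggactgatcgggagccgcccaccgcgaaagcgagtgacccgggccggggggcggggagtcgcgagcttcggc
Plaur: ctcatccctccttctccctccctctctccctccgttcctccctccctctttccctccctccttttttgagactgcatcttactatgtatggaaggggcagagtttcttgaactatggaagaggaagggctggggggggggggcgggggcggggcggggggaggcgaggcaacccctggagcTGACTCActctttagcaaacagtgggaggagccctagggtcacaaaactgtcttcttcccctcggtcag
The *F3* stretch held 2 matches and the *Plaur* stretch 1. The *Procr* stretch held 1, and the *F8* and *Tfpi* stretches held none. Over all 32851 promoter stretches of this length, 6.75% held at least 1 match and 0.338% at least 2, with both strands searched. The motif reads the same on both strands, so that each match was counted once. A match describes the sequence and does not show binding, and a part of AP-1 in the levels of these genes was not tested.

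Genes with a like pattern were sought over 16 cell types in both libraries (32 profiles of log2(CPM + 1)) among 7778 genes outside the lists. Only types with at least 50 cells in each library were used, so vein-like and lymphatic-like cells (34 and 14 in room air) were left out. The highest levels of *Vwf*, *Procr*, *F8* and *Plau* lay in these left-out types, so their r values do not cover their main sites. *Plat* was closest to *Dock6* (r = 0.907), *Unc5b* (0.907) and *Gjc1* (0.899). *Plaur* was closest to *Ampd3* (r = 0.938), *Arpc3* (0.932) and *Pik3r6* (0.930), and *Plau* to *Mmp12* (0.880), *Fcna* (0.865) and *Ms4a7* (0.864). *Thbd* was closest to *Fzd4* (r = 0.882), *Acvrl1* (0.878) and *Stard9* (0.868), and *Tfpi* to *Lix1l* (0.944), *Meis1* (0.940) and *Epb41l2* (0.922). The gene nearest to both *Vwf* and *Procr* was *Thsd7a* (r = 0.877 and 0.804), followed by *Ptprr* (0.874) and *Myrip* (0.871) for *Vwf* and by *Eogt* (0.783) and *Lrrc32* (0.775) for *Procr*. *F3* was closest to *Fstl3* (r = 0.914), *Mmp23* (0.908) and *Egfr* (0.876), and *F8* to *Cyhr1* (0.706), *Ganab* (0.684) and *Dpm2* (0.680). The 2 profiles of a type share its cells' identity and the 16 types of a library its depth, so that r is a description.

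A wider list of 41 genes gave the rest of the pathway, from coagulation factors and thrombin receptors to anticoagulants and regulators of plasminogen. In endothelial-like cells 9 of the 41 passed the filter, 6 were called higher and 2 lower, with a median log2 ratio of 0.74, beside 6.69% and 8.47% of all genes and a median of 0.01. The plasminogen receptor genes went in both directions. *Anxa2* was higher at 267 and 605 CPM (ratio 2.26, 2.16 to 2.37), as was its partner *S100a10* at 341 and 577 CPM (1.69, 1.62 to 1.76), while *Plgrkt* was lower. *Serpine2*, which inhibits thrombin, was 29.4 and 55.7 CPM (1.89, 1.65 to 2.18).

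The protein C cofactor *Pros1* was 53.3 and 89.0 CPM (1.67, 1.504 to 1.86) and *Anxa5*, whose product covers the lipids that clotting factors need, 229 and 370 CPM (1.62, 1.54 to 1.70). The lower genes were *Serpinc1*, which encodes antithrombin, at 22.4 and 11.1 CPM (0.498, 0.408 to 0.609) and the plasminogen receptor *Plgrkt* at 57.5 and 35.99 CPM (0.626, 0.556 to 0.704). The thrombin receptor *F2r*, at 45.4 and 67.6 CPM, fell just short of the fold (1.49, 1.33 to 1.68).

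In artery-like cells 11 of the 41 genes passed, with 7 called higher and 2 lower, beside 14.1% and 15.7% of all genes. Among them the adhesion receptor *Selp* was 14.8 and 94.9 CPM (ratio 6.40, 3.62 to 12.4), beside the *Vwf* level of the same cells. In epithelial-like cells 7 passed and none was called, beside 4.68% and 8.96%. In myeloid-like cells 12 passed, where 4.33% and 8.27% of all genes were called, and *F7* was among those called higher (77.7 and 117 CPM, ratio 1.51, 1.37 to 1.67), while *Serpinb2* was called lower (50.4 and 17.2 CPM, ratio 0.340, 0.285 to 0.405). *F7*, the partner of tissue factor, had 88.4% of its UMIs in room air and 90.2% in hyperoxia in alveolar macrophage-like cells, where it was 225 and 249.6 CPM, below the fold (1.11, 0.9998 to 1.23).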

How the data were processed

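Whole lungs were dissociated and 1 droplet library of 3′ RNA was made from the pooled cells of 8 mice per group. The deposited matrices hold UMI counts per gene and barcode, which the authors made with Cell Ranger on mm10 (2.1.1 in the submitters' processing notes, 6.1.1 in the methods), and no sample column was left out. The header of the matrices gives software version 3.1.0, so the version that made them is not settled. The kit is v2 in the labels and V3 in the methods. Totals were 39593888 and 111934936 UMIs, and intervals cover counting error only.

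Barcodes under 500 genes (345 and 1026) or over 20% mitochondrial UMIs (80 and 486) were left out. Doublets were scored against simulated pairs and the top 129 and 1239 barcodes removed (0.8% per 1000 barcodes). Log values of counts per 10000 were taken, and 2000 variable genes (without the listed genes), 30 principal components, 20 neighbours and Leiden clustering at resolution 1 gave clusters, first of lineages and then within each lineage. A cluster was named "X-like" from at least 3 raised markers, or left unnamed. The naming rule was changed once after clusters had been seen. All cell type names are rebuilt here and may differ from those of the study. The 9 genes, the wider list and the tests were chosen with earlier results of these data known. The genes named were the 9 genes, the 3 most alike for each by Pearson's r over types with at least 50 cells, and genes of the wider list with a mean CPM of at least 10. Some results of the wider list are not reported here.

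UMIs were summed per type and library and given as CPM with exact Poisson intervals, ratios with exact conditional intervals, and shares with Clopper-Pearson intervals. No test between the groups was made. The code for the intervals and calls was checked on simulated counts with known folds. Alternatives varied the cell filter, doublets, resolution, joint clustering, scaling (edgeR 4.0.16 TMM factors, median-of-ratios), the CPM minimum and the fold. Python 3.11.15, numpy 2.4.6, scipy 1.17.1, scikit-learn 1.9.0 and leidenalg 0.10.2 were used.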

Additional observations from a re-analysis of the deposited data

Results flagged for a closer look

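Ratios were taken here only where their interval left out 1, and types with few cells of room air were set aside. Among these ratios, 3 genes had log2 values (positive where hyperoxia was higher) past the fold in opposite directions in different cell types. Lymphatic-like cells (14 of room air) were among the types set aside, with a log2 ratio of -0.80 for *Plat* and -2.07 for *Vwf*. Each value compares 1 library per group, so that the differences between types were not tested.

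*Thbd* was higher in gCap-like cells (log2 ratio 0.76), cycling endothelial cells (0.70), interstitial macrophage-like cells (0.92, from 16 and 72 UMIs) and B-like cells (1.19, from 18 and 84 UMIs). Of all genes that passed, 556 of 8110 were called higher in gCap-like and 1217 of 8365 in cycling endothelial cells. In interstitial macrophage-like cells 624 of 7633 were called higher, and in B-like cells 489 of 7438. *Thbd* was lower in alveolar fibroblast-like (-0.64), smooth muscle-like (-1.02), neutrophil-like (-1.002), alveolar macrophage-like (-0.61) and dendritic-like cells (-3.61). In smooth muscle-like cells 3 of 10 alternatives reversed this direction. Of all genes that passed, 1759 of 7447 were called lower in alveolar macrophage-like and 1169 of 5999 in neutrophil-like cells. In smooth muscle-like cells 853 of 8460 were called lower, and in alveolar fibroblast-like cells 598 of 8423. No share was worked out for dendritic-like cells. In room air 25 of the 51 *Thbd* UMIs of dendritic-like cells came from 1 cell, and the EC markers summed to 594 and 117 CPM there and to 752 and 311 CPM in neutrophil-like cells. In lymphocyte-like cells, which include the B-like cells, these markers summed to 232 and 279 CPM with 7 of 8 higher. Their part was not tested.

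*F3* was higher in alveolar fibroblast-like (2.40) and pericyte-like cells (1.95) and lower in AT1-like cells (-0.64). Of all genes that passed, 8.25% were called higher in alveolar fibroblast-like and 9.84% in pericyte-like cells, and 12.8% lower in AT1-like cells. The 12 dissociation genes summed to 2903 CPM in AT1-like cells of room air and 2676 CPM of hyperoxia, while they were higher in hyperoxia in both of the other types. Their part in the *F3* values was not tested.

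*Vwf* was higher in artery-like cells (1.16), alveolar macrophage-like cells (1.56) and cycling endothelial cells (1.67, from 7 and 54 UMIs), and lower in gCap-like (-0.90) and vein-like cells (-0.65). Of all genes that passed, 14.1% were called higher in artery-like, 4.22% in alveolar macrophage-like and 14.5% in cycling endothelial cells. In gCap-like cells 9.25% were called lower, and no share was worked out for vein-like cells.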

How the results depend on the processing

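No paired analysis was possible because each group is 1 library, and for the same reason no replicate could be left out. In endothelial-like cells 2 of the 9 genes were called higher and none lower. Of the alternatives, 5 genes were called higher with no filter on low values (18.1% of all genes higher, 22.9% lower), 4 with a difference of at least 25% (18.8% and 19.6%) and 1 with a fold of 2 (1.87% and 2.44%). With the subpopulations weighted as in room air only *Plat* was called, 1 gene in all. Cells without a UMI of other lineages numbered 66 and 50, and there 22.2% of all genes were higher and 22.1% lower. In these few cells the log2 ratios of *Plat* (1.11) and *Thbd* (0.62) lay above the fold and that of *Procr* (-1.56) below it. Those of *Vwf* (0.47) and *Tfpi* (0.49) did not reach it. Cells without platelet UMIs and cells of named or cycling clusters, both chosen after seeing the data, gave 2 genes each.

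Of 656 alternative values for 64 log2 ratios, 588 stayed on the same side of the fold and 68 did not, of which 5 reversed. With the libraries clustered apart, *Plat* in lymphatic-like cells was 0.50, *Plaur* in smooth muscle-like cells -0.42 and *Thbd* in smooth muscle-like cells 0.90. *Thbd* in smooth muscle-like cells was also 0.17 with the strict cell filter and 0.057 with double the expected doublets. The smooth muscle-like type held 46 to 56 cells of room air in these 3 settings and 97 in the values reported. Without doublet removal *Thbd* in myeloid-like cells was -0.05 in place of -0.65, and *F3* in epithelial-like cells -0.38 in place of -0.91. The causes were not tested. The depth limits *Plau*, *F8* and *Procr* most, whose totals over all cells of room air were 67, 69 and 174 UMIs.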
